A study of Mus musculus with 38 samples.

Results

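Genes of cartilage and of mineralizing tissue were followed in mouse models of high-grade serous ovarian cancer (HGSOC). They were Col10a1, Comp, Acan, Sox9, Runx2 and Alpl, which are 6 of the 55487 genes counted, and the set was chosen because Col10a1 is much lower in chemotherapy-treated 60577 tumors. That fall of Col10a1 is therefore given as a description, without a test. Bulk RNA of 34 omental tumors was sequenced, 17 from the 60577 model and 17 from the HGS2 model, together with 4 libraries of the 60577 and HGS2 cell lines in culture (2 each). The 60577 cells were grown in FVB mice and the HGS2 cells in C57BL/6J mice, the strains of their origin, in wild-type females injected intraperitoneally at 8 to 9 weeks of age. Treatment was carboplatin (20 mg/kg) with paclitaxel (10 mg/kg), in 3 doses starting 21 days (60577) or 49 days (HGS2) after injection, and control mice received vehicle. Tumors were taken 1 day (TP1), 7 days (TP2) or 21 days (TP3) after the last dose.

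The 60577 tumors comprised 3 TP1 controls, 3 TP1 treated, 3 TP2 controls, 4 TP2 treated and 4 TP3 treated tumors. The HGS2 tumors comprised 3 TP1 controls, 3 TP1 treated, 4 TP2 controls, 3 TP2 treated and 4 TP3 treated tumors. No control tumors at TP3 were analysed, so TP3 treated tumors were set against TP2 controls, where treatment and time cannot be told apart. Each model is 1 cell line in 1 mouse strain, and HGS2 tumors and mice were older at each time point. Model, strain and age therefore cannot be told apart either. The depth of a tumor library, as the sum of its expected counts, was 17839635 to 49299442 (median 27358649). Levels are given as CPM, the counts of a gene scaled by the total of its library. A gene was called when the adjusted p of edgeR's quasi-likelihood test over all genes was below 0.05 and the absolute log2 fold change was above 1. Values after ± are standard errors unless stated otherwise.

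In growing cartilage, SOX9 drives the genes of the chondrocyte matrix, among them Acan, which encodes the large proteoglycan aggrecan, and Comp, which encodes a pentameric matrix protein of the thrombospondin family. When chondrocytes enlarge before bone forms, RUNX2 activates Col10a1, the collagen X gene that marks this hypertrophic stage. RUNX2 is also required for osteoblasts, and Alpl encodes the tissue-nonspecific alkaline phosphatase that removes the mineralization inhibitor pyrophosphate. Outside the skeleton, SOX9 is found in many epithelia, RUNX2 in carcinoma and stromal cells, and ALPL in several other cell types.

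The promoter sequences of Col10a1 and Runx2 are shown because the first is the gene that led to the set and the second is the factor known to act on it. Both are windows of 250 bases before and 50 after a start site, from RefSeq on GRCm38.p6, printed 5′ to 3′ on the strand of the gene. The Col10a1 window lies at chr10:34389731-34390030 on the plus strand, and capitals mark a SOX core (ACAAAG). The Runx2 window lies at chr17:44814578-44814877 on the minus strand, and capitals mark RUNX cores read on the opposite strand (ACCACA, the reverse complement of TGTGGT).
Col10a1: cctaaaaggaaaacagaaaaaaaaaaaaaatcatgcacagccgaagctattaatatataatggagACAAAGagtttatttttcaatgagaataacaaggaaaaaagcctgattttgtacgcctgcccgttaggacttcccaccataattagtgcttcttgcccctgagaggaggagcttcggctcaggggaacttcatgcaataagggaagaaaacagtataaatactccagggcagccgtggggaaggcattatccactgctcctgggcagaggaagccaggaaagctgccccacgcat
Runx2: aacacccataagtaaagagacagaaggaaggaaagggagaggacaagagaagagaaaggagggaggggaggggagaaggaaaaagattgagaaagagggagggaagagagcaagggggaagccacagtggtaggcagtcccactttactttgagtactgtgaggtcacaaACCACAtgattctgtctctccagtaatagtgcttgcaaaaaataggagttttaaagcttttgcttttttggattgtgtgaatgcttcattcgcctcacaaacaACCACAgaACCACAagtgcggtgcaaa

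The motifs searched on both strands were TGTGGT for RUNX, ACAAAG or ACAATG for SOX, and TGANTCA for AP-1. The Col10a1 window held 1 SOX core, at bases 66 to 71, and no RUNX core. The Runx2 window held RUNX cores at bases 171 to 176, 274 to 279 and 282 to 287. Among all 32851 windows, 16.8% held the RUNX core, 28.6% a SOX core and 7.81% the AP-1 motif. The first Alpl window held 1 SOX core and its second window held 2, while the Acan window held none of the motifs and no AP-1 motif was found in any of the 5 windows of the 4 members matched. Comp and Sox9 had no entry. A match of letters is a description of the window and not a binding site.

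All 6 genes were counted in both tables, and all 6 passed the filter on low counts (1 CPM or more in 25% or more of the 33 tumors fitted). The filter was passed in different ways. Col10a1 reached 1 CPM in 5 of 17 60577 tumors, all of them controls, and in 9 of 17 HGS2 tumors. Acan reached it in 0 of 17 60577 tumors and in 16 of 17 HGS2 tumors, so it was kept only through HGS2. Comp reached it in 11 and 16 tumors, while Sox9, Runx2 and Alpl reached it in every tumor. Per kilobase of exon, the median levels over the 60577 tumors were highest for Alpl (7.12 CPM per kb), then Runx2 (3.65) and Sox9 (2.61), and far lower for Comp (0.491), Col10a1 (0.0240) and Acan (0.0106). In HGS2 the order of these per-kilobase medians was Runx2 (6.43 CPM per kb), Sox9 (3.45), Alpl (3.10), Comp (2.60), Acan (1.45) and Col10a1 (0.424).

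**Figure D1:**
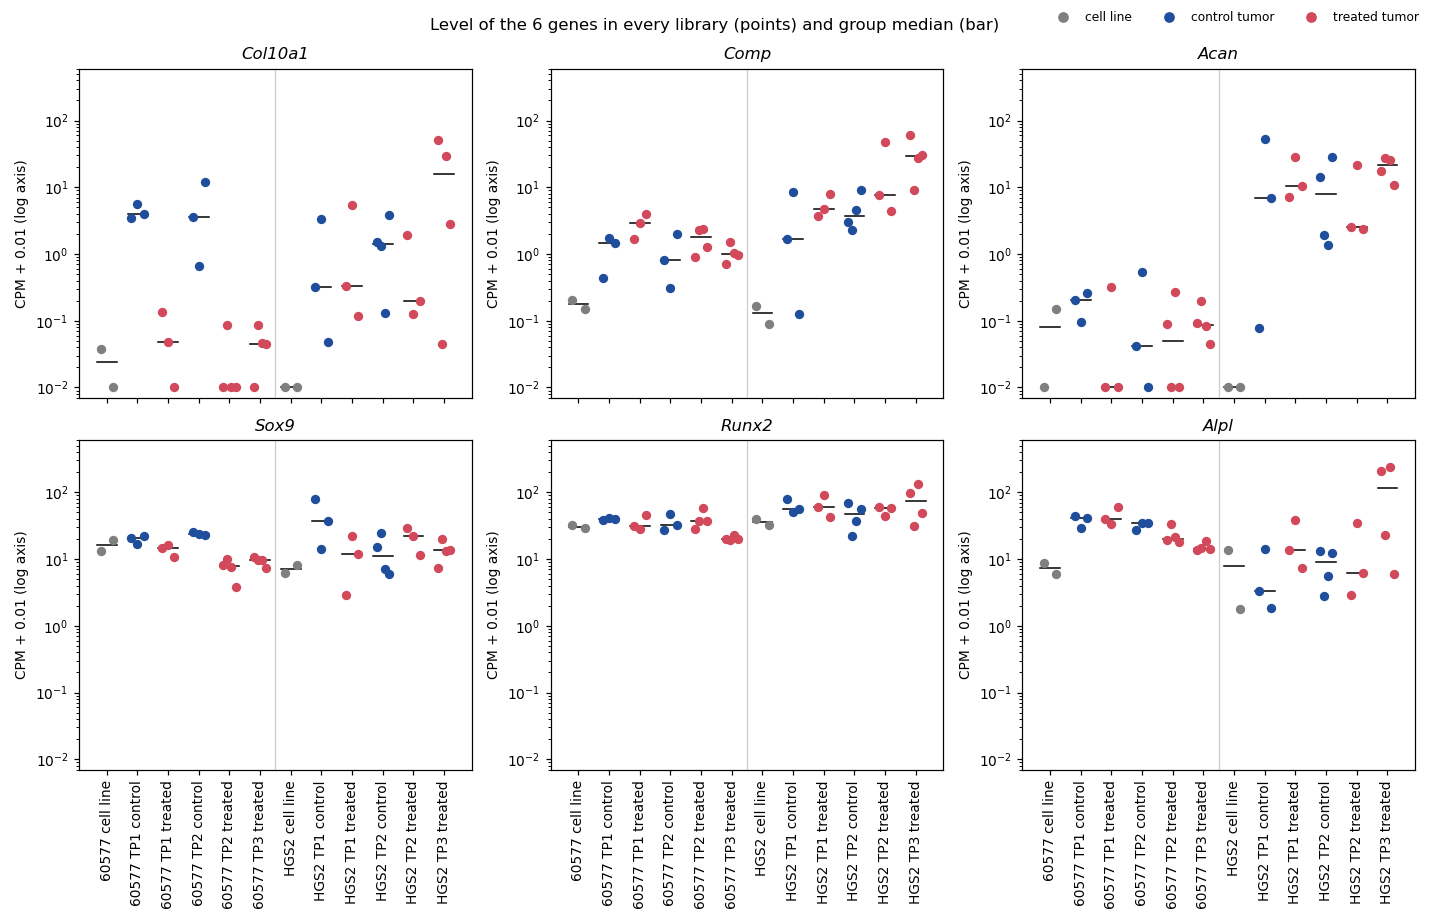
Level of each of the 6 genes (CPM + 0.01, log axis) in every library, grouped by model, time point and treatment, with cell lines in gray, control tumors in blue, treated tumors in red and the group median as a bar. In 60577, Col10a1 lies between 0.654 and 11.8 CPM in the controls and at or below 0.127 CPM in the treated tumors, and in HGS2 the highest Col10a1 and Alpl levels are in TP3 treated tumors.

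Col10a1 (ENSMUSG00000039462, chromosome 10 from 34389981 to 34397085, plus strand, GRCm38) was present in every 60577 control tumor and close to absent from the treated ones. Its levels in TP1 controls were 3.41, 5.51 and 3.94 CPM, from 87, 127 and 111 counts. In TP1 treated tumors they were 0.127, 0.0382 and 0 CPM, from 4, 1 and 0 counts. The lowest control was above the highest treated tumor, and no treated library held more than 4 counts.

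At TP2 the controls spread more widely, with 3.56, 0.654 and 11.8 CPM (111, 20 and 263 counts). The 4 TP2 treated tumors held 0, 2, 0 and 0 counts, and the 4 TP3 treated tumors held 0, 2, 1 and 1. Even the lowest TP2 control was above every treated tumor of both later time points. Pooled over libraries, TP1 controls held 325 counts (4.24 CPM) and TP1 treated tumors 5 (0.0591 CPM). TP2 controls held 394 counts (4.69 CPM), of which 263 came from replicate 3, against 2 in TP2 treated tumors, both in replicate 2, and 4 in TP3 treated tumors (0.0204 and 0.0373 CPM). The fitted log2 fold changes were -5.97, -7.69 and -7.06, but with most treated libraries at or under 3 counts these values depend on the prior count. Between the control tumors, a comparison that did not choose the set, Col10a1 differed by 0.37 ± 0.68 from TP1 to TP2 on the log2 scale (edgeR adjusted p = 0.888). That direction turned, to -0.86, without TP2 control replicate 3.

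The Col10a1 exons overlap Nt5dc1, a gene on the opposite strand with 4.85 to 16.2 CPM in tumors. The libraries were strand-specific according to the study's methods, but whether the counting used strand is not given in the sources used here. In the cultured 60577 line, 1 and 0 counts fell on Col10a1, so the level of the control tumors was not seen in the cells in culture.

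Comp (ENSMUSG00000031849, chromosome 8 from 70373558 to 70382066, plus strand) stayed low in 60577, at 0.294 to 4.00 CPM. The TP1 controls had 0.431, 1.74 and 1.46 CPM and the TP1 treated tumors 1.66, 2.86 and 4.00. The groups overlapped through 1 control, and the log2 fold change of 1.37 ± 0.60 was not called (edgeR adjusted p = 0.0918).

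At TP2, Comp was at 0.802, 0.294 and 2.02 CPM in controls and 0.907, 2.26, 2.36 and 1.27 in treated tumors, a log2 fold change of 0.76 ± 0.58 (edgeR adjusted p = 0.266). Without TP2 control replicate 3 this became 1.57 (edgeR adjusted p = 0.0472). The TP3 treated tumors, at 0.703, 1.49, 1.01 and 0.965 CPM, lay within the range of the TP2 controls.

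Acan (ENSMUSG00000030607, chromosome 7 from 79053483 to 79115099, plus strand) was at most 0.523 CPM in any 60577 tumor. Counts ranged from 0 to 16 per library, and 5 of 17 tumors held none. At this depth no difference between treated and control 60577 tumors was detectable for aggrecan.

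Sox9 (ENSMUSG00000000567, chromosome 11 from 112782224 to 112787760, plus strand) was the member called lower in 60577 at both later time points. The TP1 controls had 20.6, 16.8 and 22.2 CPM and the TP1 treated tumors 14.5, 16.2 and 10.6. The groups did not overlap, but the log2 fold change of -0.41 ± 0.24 was not called (edgeR adjusted p = 0.201). At TP2 the controls had 25.6, 23.8 and 23.0 CPM and the treated tumors 8.24, 10, 7.61 and 3.86. All treated tumors were far below the lowest control, and the log2 fold change was -1.72 ± 0.22 (edgeR adjusted p = 2.53e-05).

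The TP3 treated tumors had 10.8, 9.53, 9.71 and 7.24 CPM of Sox9, again all below the TP2 controls. The log2 fold change was -1.50 ± 0.22 (edgeR adjusted p = 5.34e-05). Leaving out single tumors gave -1.90 to -1.53 at TP2 and -1.57 to -1.40 at TP3. Between treated tumors, Sox9 changed by -0.92 ± 0.22 from TP1 to TP2 (edgeR adjusted p = 0.0141), under the fold limit, and by 0.21 ± 0.21 from TP2 to TP3 (edgeR adjusted p = 0.430). The cultured 60577 line had 13.0 and 19.0 CPM of Sox9, above every TP2 and TP3 treated tumor and below every TP2 control.

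Runx2 (ENSMUSG00000039153, chromosome 17 from 44495987 to 44814797, minus strand) was not called at TP1 or TP2. Controls had 38.5, 41.9 and 40.4 CPM at TP1 and 27.2, 47.2 and 32.2 at TP2. Treated tumors had 30.9, 28.5 and 45.6 CPM at TP1 and 28.2, 37.0, 58.6 and 37.0 at TP2, which overlapped the controls of each time point. The log2 fold changes were -0.05 ± 0.26 at TP1 and 0.19 ± 0.24 at TP2 (edgeR adjusted p = 0.901 and 0.524).

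At TP3 all 4 treated tumors were low in Runx2, at 19.8, 19.0, 22.9 and 20.3 CPM, below every other 60577 library. Against TP2 controls the log2 fold change was -0.91 ± 0.24 (edgeR adjusted p = 0.00522), under the fold limit of a call. Against TP2 treated tumors it was -1.10 ± 0.23 (edgeR adjusted p = 0.00445), which was called, and without TP2 treated replicate 3 it was -0.88 and not called. The difference from TP2 controls was itself called without TP2 control replicate 1 (-1.05, edgeR adjusted p = 0.00484) or replicate 3 (-1.01, edgeR adjusted p = 0.00706), and with the length and GC content offset (-1.21), which moved the median of all genes by -0.29. Exons of the antisense gene Runx2os1 overlap Runx2, at 0.289 to 3.29 CPM in tumors.

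Alpl (ENSMUSG00000028766, chromosome 4 from 137741733 to 137796384, minus strand) was called lower at TP3 and not at TP1 or TP2. TP1 controls had 43.5, 28.7 and 41.0 CPM and TP1 treated tumors 39.4, 33.99 and 60.0, with a log2 fold change of 0.39 ± 0.26 (edgeR adjusted p = 0.278). TP2 controls had 27.6, 35.2 and 34.5 CPM and TP2 treated tumors 19.2, 34.1, 21.1 and 17.9, with a log2 fold change of -0.48 ± 0.25 (edgeR adjusted p = 0.103). One TP2 treated tumor, replicate 2, overlapped the controls.

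In TP3 treated tumors Alpl was at 13.4, 14.7, 18.9 and 14.0 CPM, below all TP2 controls. The log2 fold change was -1.20 ± 0.25 (edgeR adjusted p = 0.000874) and it was called. In a fit of both models together it was -1.21 with a larger standard error of 0.83 (edgeR adjusted p = 0.256) and not called. Between treated tumors, Alpl differed by -0.997 ± 0.25 from TP1 to TP2 (edgeR adjusted p = 0.0156), just under the fold limit, and by -0.72 ± 0.23 from TP2 to TP3 (edgeR adjusted p = 0.0283). The cultured line, at 8.57 and 6.03 CPM, was below every 60577 tumor.

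**Figure D2:**
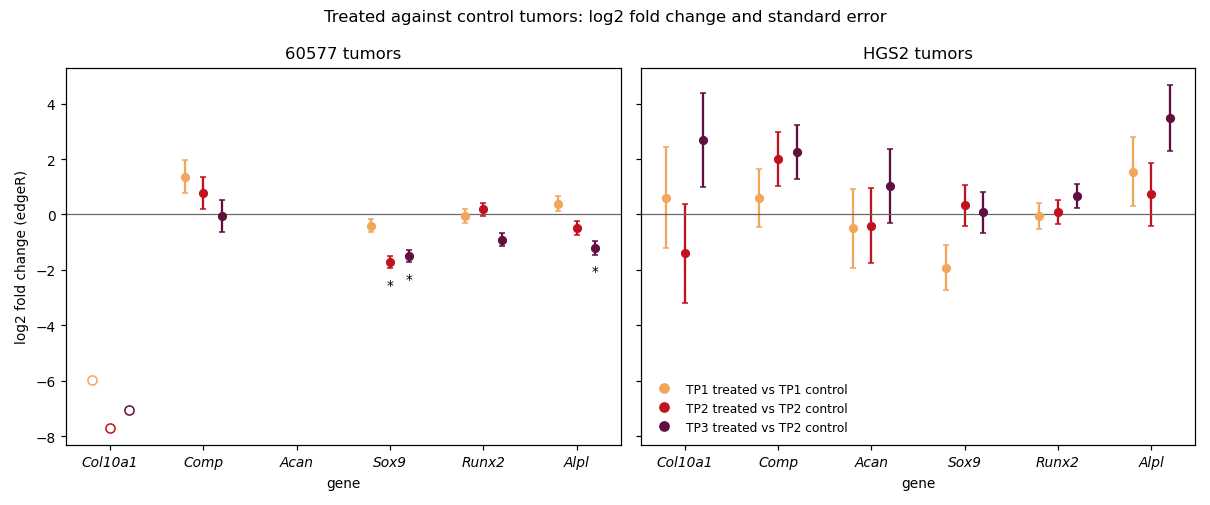
Fitted log2 fold change of each gene (y axis) in treated against control tumors of 60577 (left) and HGS2 (right), with colors for the 3 comparisons, bars for the standard error and an asterisk for a call. Col10a1 in 60577 is drawn as open circles without error because it chose the set, and Acan in 60577 is not drawn because it was hardly counted. Sox9 at TP2 and TP3 and Alpl at TP3 carry the only asterisks.

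Counted over the 5 members other than Col10a1, treated 60577 tumors had 0 calls at TP1, where 15.6% of all 16241 genes were called. Acan is among these 5, though it was hardly counted in 60577. At TP2 there was 1 call, lower, where 24.4% of all genes were called. At TP3 against TP2 controls there were 2, both lower, and again 24.4% of all genes were called. Nothing is read from these shares, since the contrast is the one that chose the set. Between treated tumors, 0 of the 5 were called from TP1 to TP2, against 6.02% of all genes. From TP2 to TP3 1 of the 5, Runx2, was called lower, against 7.87% of all genes. Between the 60577 controls of TP1 and TP2, 0 of 6 members and 0% of all genes were called by edgeR. In that comparison 1502 genes had an unadjusted p below 0.05 and DESeq2 called 70.

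Other genes of the tissue did not share one direction in 60577. For this list and those that follow, cell type markers included, the share of all genes called was 15.6% at TP1, 24.4% at TP2 and 24.4% at TP3. Of 23 other cartilage matrix genes, 13 could be tested. At TP1, 2 were called higher and 1 lower in treated tumors, with a median log2 fold change of 0.52 against -0.00 over all genes. Matn4, a matrilin, rose by 2.63 ± 0.46 (edgeR adjusted p = 0.000652), and Cilp2 fell by 1.99 ± 0.59 on the log2 scale (edgeR adjusted p = 0.0174). The call for Cilp2 was lost without TP1 control replicate 1, TP1 treated replicate 1 or TP1 treated replicate 3, at adjusted p-values of up to 0.0749. At TP2, 3 were called higher and 1 lower (median 0.82 against 0.03), with Prelp at 1.80 ± 0.42 and the fibrillar collagen gene Col27a1 at 1.52 ± 0.27 (edgeR adjusted p = 0.00224 and 0.000323). At TP3, 2 were called higher and 3 lower (median 0.45 against -0.00), and Prelp and Fmod, small leucine-rich proteoglycan genes, stood at 2.93 ± 0.44 and 1.74 ± 0.50 (edgeR adjusted p = 7.09e-05 and 0.00847).

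Of 24 regulators of chondrocytes and osteoblasts, 21 could be tested. Counts called among them lay near the shares of all genes, 15.6% at TP1 and 24.4% at TP2 and TP3, and nothing is read from them. At TP1, 1 was called higher and 2 lower (median -0.35 against -0.00), at TP2 4 higher and 1 lower (median 0.19 against 0.03), and at TP3 4 higher and 2 lower (median 0.16 against -0.00). Pth1r, the receptor through which parathyroid hormone-related protein delays chondrocyte hypertrophy, was higher by 1.87 ± 0.47 at TP1 (edgeR adjusted p = 0.00690) and by 3.15 ± 0.47 at TP3 (edgeR adjusted p = 6.10e-05). Sp7, which encodes the osteoblast factor osterix, was lower at TP1, with a log2 fold change of -1.33 ± 0.32 (edgeR adjusted p = 0.00575). Gli1, a target of hedgehog signaling, was higher by 2.25 ± 0.60 at TP2 and by 2.16 ± 0.60 at TP3 (edgeR adjusted p = 0.00522 and 0.00714). The BMP receptor gene Bmpr1b had a log2 fold change of -2.52 ± 0.52 at TP2 (edgeR adjusted p = 0.000903).

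Of 15 mineralization genes, 9 could be tested. At TP1, 2 were called higher and 0 lower (median 0.74 against -0.00), at TP2 0 higher and 4 lower (median -0.64 against 0.03), and at TP3 1 higher and 4 lower (median -0.64 against -0.00). Spp1, the osteopontin gene that macrophages also express, was higher by 1.84 ± 0.56 at TP1 (edgeR adjusted p = 0.0209) and stood at -4.91 ± 0.57 at TP3 (edgeR adjusted p = 7.77e-06). Its TP1 call was lost in limma-voom and without TP1 control replicate 1, TP1 treated replicate 1 or TP1 treated replicate 3, at adjusted p-values of up to 0.0906. Phospho1, a phosphatase of matrix vesicles, was higher by 1.00 ± 0.27 at TP1 (edgeR adjusted p = 0.0101), at the fold limit, and fell under that limit without TP1 control replicate 2 or 3 or TP1 treated replicate 1 or 3. Mmp13, the collagenase of hypertrophic cartilage, had log2 fold changes of -3.26 ± 0.60 at TP2 and -4.59 ± 0.64 at TP3 (edgeR adjusted p = 0.000384 and 3.62e-05). Ahsg, which encodes the circulating mineralization inhibitor fetuin-A, stood at -3.28 ± 0.34 at TP2 (edgeR adjusted p = 5.12e-06).

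Among the 15 closest relatives of the members, 10 could be tested, with 3 called higher and 2 lower at TP1, 1 and 1 at TP2 and 2 and 1 at TP3. Their median log2 fold changes were -0.06, 0.21 and -0.03. Thbs4, a thrombospondin gene related to Comp, was lower at each time, at -2.46 ± 0.37, -2.33 ± 0.33 and -2.90 ± 0.34 (edgeR adjusted p = 0.000180, 5.41e-05 and 7.76e-06). Vcan, the versican gene related to Acan, was higher by 1.79 ± 0.32 at TP1 (edgeR adjusted p = 0.000655). Thbs3 was higher by 1.15 ± 0.29 at TP2 (edgeR adjusted p = 0.00377, under the fold limit without TP2 control replicate 2 or 3 or TP2 treated replicate 4) and Thbs2 by 1.74 ± 0.41 at TP3 (edgeR adjusted p = 0.00223).

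Cell type markers also differed between treated and control tumors of 60577. Of 7 epithelial markers tested, 6, 7 and 7 were called lower at TP1, TP2 and TP3. The summed CPM of the 8 listed was 1793 to 3057 in controls, 310 to 685 in TP1 treated, 290 to 606 in TP2 treated and 236 to 373 in TP3 treated tumors, and 4481 to 4854 in the cultured line. Mesothelial markers were called lower for 4, 1 and 4 of 5. Fibroblast markers were called higher for 6, 3 and 6 of 10, with a summed CPM of 6527 to 10950 in controls and 18850 to 27910 in TP1 treated tumors. Adipocyte markers were called higher for 7, 7 and 8 of 8. The adipocyte sum in TP1 treated tumors was 43.1 to 1346 CPM (median 89.1), against 47.6 to 56.5 in TP1 controls. Neutrophil markers were called higher for 5 of 5 at TP1 and lower for 3 and 4 of 5 at TP2 and TP3. Pancreatic acinar markers were called lower for 8 of 8 at TP2 and for 0 of 8 at TP1 and TP3. TP2 controls were uneven in them, with a summed CPM of 10.7 to 1759 (median 258), against 5.58 to 11.8 in TP1 controls. TP2 treated tumors lay at 6.84 to 23.6. Macrophage markers were called higher for 2 of 5 at each time, mural cell markers for 2, 2 and 3 of 6 and endothelial markers for 0, 1 and 4 of 7. In bulk RNA, fewer cells of a type and less RNA per cell cannot be told apart, and the part of these shifts in the values of Col10a1, Sox9 and Alpl was not tested. The defining chondrocyte genes Cnmd, Col9a1, Hapln1 and Matn1 did not pass the filter. Cnmd lay at 0 to 0.0689 CPM in 60577 tumors. In the 14 HGS2 tumors other than the 3 high in bone genes, described below, it lay at 0 to 0.108 CPM. Over all chondrocyte markers listed, which include Acan and Sox9, the summed CPM reached 36.1 in 60577 tumors and 110 in HGS2 tumors. Col2a1, the main collagen gene of cartilage, was at 0.916 to 16.96 CPM in 60577 tumors. The range of Cnmd leaves out the 3 HGS2 tumors high in bone genes, where Col2a1 was above the other HGS2 tumors, as given below. A gene present only in those 3 would fail the filter, so failing it does not show absence there. The set is described by its genes and not as a sign of cartilage cells, whose presence was not tested.

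**Figure D3:**
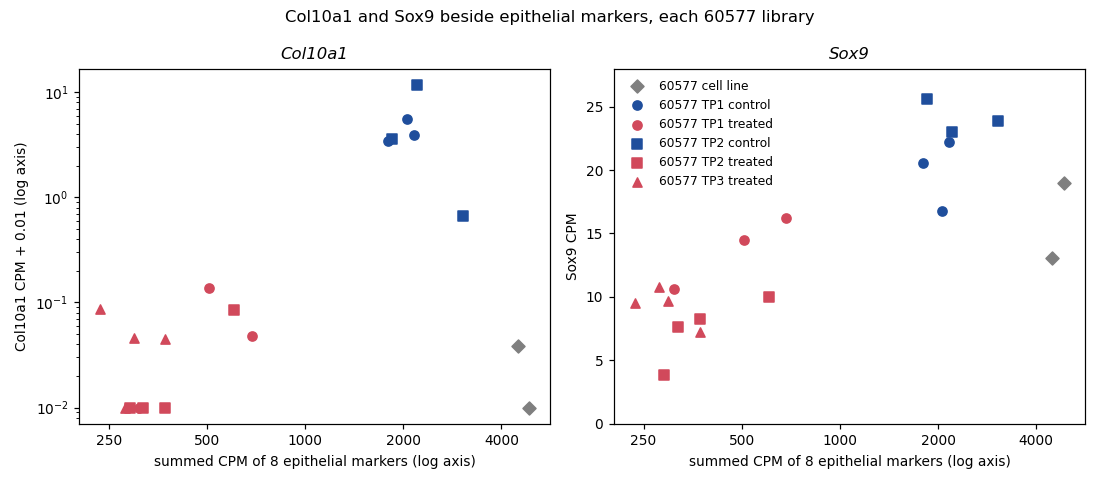
Col10a1 (left, CPM + 0.01, log axis) and Sox9 (right, CPM, linear axis) against the summed CPM of 8 epithelial markers (log axis) in each 60577 library. Control tumors lie at 1793 to 3057 and treated tumors at 236 to 685 on the x axis. The cultured line lies at 4481 or more, with Col10a1 at or below 0.0283 CPM and Sox9 at 13.0 and 19.0 CPM.

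HGS2 tumors of the same group differed widely from each other. In HGS2, edgeR called 0 of the 6 members and 0% of all genes at TP1, at TP2 and at TP3 against TP2 controls. In these 3 comparisons 413, 1234 and 407 genes had an unadjusted p below 0.05, DESeq2 called 1, 8 and 5 genes, and limma-voom 0. The main fit used 16 of the 17 tumors, because TP3 treated replicate 1 does not appear in the tables of the study, and the tumor was put back in an alternative.

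Col10a1 was uneven in HGS2. Controls had 0.305, 3.32 and 0.0386 CPM at TP1 and 1.51, 1.33, 0.122 and 3.79 at TP2. Treated tumors had 0.320, 5.41 and 0.108 CPM at TP1 and 1.93, 0.115 and 0.186 at TP2. Treated and control tumors overlapped at both times, and the log2 fold changes were 0.60 ± 1.82 and -1.40 ± 1.78 (edgeR adjusted p = 0.999 and 0.846). The TP3 treated tumors had 51.6, 0.0344, 29.3 and 2.81 CPM, so that 2 of them were above every other library of the series and 1 was near 0. Over the 3 fitted, the log2 fold change against TP2 controls was 2.68 ± 1.71 (edgeR adjusted p = 1.00), and without TP3 treated replicate 3 it was -0.42.

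Comp was counted in every HGS2 tumor. TP2 controls had 2.95, 2.30, 4.57 and 9.10 CPM and TP2 treated tumors 7.72, 47.6 and 4.38, which overlapped (log2 fold change 2.00 ± 0.97, edgeR adjusted p = 0.657). The TP3 treated tumors had 61.2, 9.18, 27.7 and 30.7 CPM and were all above every HGS2 control, of which the highest had 9.10. The log2 fold change of TP3 against TP2 controls was 2.27 ± 0.97 over the 3 fitted (unadjusted p = 0.0360 and adjusted p = 1.00 from edgeR) and 2.76 with all 34 tumors. At TP1, controls had 1.66, 8.46 and 0.116 CPM and treated tumors 3.76, 4.70 and 7.94, within the control range.

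Acan was also present in HGS2, from 0.0677 to 53.2 CPM. TP1 controls alone spanned that whole range, with 0.0677, 53.2 and 6.99 CPM, and the TP1 treated tumors had 7.25, 28.2 and 10.5. TP2 controls had 14.1, 1.89, 1.35 and 28.03 CPM, TP2 treated tumors 2.55, 21.4 and 2.36, and TP3 treated tumors 17.4, 27.8, 25.5 and 10.8. The groups overlapped, and by edgeR no comparison with controls had an absolute log2 fold change above its standard error. By limma-voom the log2 fold change of Acan was 1.98 ± 1.74 at TP1, where edgeR gave -0.51, and 1.79 ± 1.35 at TP3, and neither passed adjustment.

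Sox9 varied among HGS2 tumors. TP1 controls had 80.4, 14.3 and 36.6 CPM and TP1 treated tumors 2.88, 21.9 and 11.7, with a log2 fold change of -1.93 ± 0.81 (unadjusted p = 0.0322 and adjusted p = 0.999 from edgeR). TP2 controls had 15.1, 24.7, 7.14 and 5.98 CPM, TP2 treated tumors 29.6, 22.4 and 11.4, and TP3 treated tumors 7.34, 20.0, 13.2 and 13.9. All these groups overlapped, and the log2 fold changes were 0.32 ± 0.73 at TP2 and 0.07 ± 0.73 at TP3 (edgeR adjusted p = 0.921 and 1.00).

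Runx2 ranged from 22.1 to 131 CPM in HGS2 tumors. TP2 controls had 69.1, 22.1, 37.1 and 56.8 CPM and TP3 treated tumors 96.9, 31.2, 131 and 49.3, which overlapped. The log2 fold change was 0.67 ± 0.43 (edgeR adjusted p = 1.00) and turned to -0.21 without TP3 treated replicate 3. TP1 controls (50.7 to 78.5 CPM), TP1 treated (42.7 to 90.2) and TP2 treated tumors (43.8 to 59.8) also overlapped.

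Alpl reached the highest CPM of the 6 genes in HGS2, although some tumors held little of it. TP2 controls had 13.2, 2.78, 5.63 and 12.5 CPM, and TP3 treated tumors had 208, 22.6, 236 and 5.99. Of these 4, 3 were above every TP2 control, while replicate 4 was within their range. The log2 fold change over the 3 fitted was 3.49 ± 1.19 (unadjusted p = 0.0112 and adjusted p = 1.00 from edgeR), and it was 0.85 without TP3 treated replicate 3. At TP1, controls had 3.32, 14.1 and 1.85 CPM and treated tumors 13.7, 38.5 and 7.21, and at TP2 treated tumors had 2.88, 35.0 and 6.28.

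Some genes of bone were high in 3 HGS2 tumors, namely TP3 treated replicates 1 and 3 and TP1 treated replicate 2, and both the genes and the pattern were picked for description with the values known. Over the whole mineralization list, the summed CPM was 4760, 6389 and 2172 in these tumors and 2216 in TP1 control replicate 1, so that TP1 treated replicate 2 did not stand apart on the list as a whole. Ibsp, the bone sialoprotein gene, was at 1175, 1709 and 202 CPM in them, at 0 to 20.3 CPM in the other 14 HGS2 tumors and at 0 to 0.431 CPM in the 60577 tumors. Bglap, the osteocalcin gene, was at 284, 217 and 29.8 CPM, against 0 to 2.43 in the other HGS2 tumors. Of the genes of osteocytes, Dmp1, Mepe and Phex were high as well.

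Dmp1 was at 359, 450 and 55.5 CPM in these tumors, against 0 to 3.95 in the other HGS2 tumors. Mepe was at 195, 91.4 and 5.77 CPM, against 0 to 0.389. Phex, a regulator of phosphate handling in bone, was at 119, 280.5 and 20.2 CPM, against 0.231 to 1.97. Each of these genes was thus above its range in the other HGS2 tumors in all 3.

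Col2a1 and Mmp13, genes of cartilage, were above the other HGS2 tumors too. Col2a1 was at 36.6, 65.6 and 51.2 CPM, against 0 to 8.32 in the others, and Mmp13 at 398, 1093 and 250.1 CPM, against 1.58 to 41.5. Over the whole cartilage matrix list, the summed CPM was 729 to 2729 in TP3 treated tumors, 737 to 1123 in TP1 treated tumors and up to 1465 in TP1 controls, so TP1 treated replicate 2 was not above the controls there. The 2 tumors with the highest Col10a1 (51.6 and 29.3 CPM) and Alpl (208 and 236 CPM) of all libraries were TP3 treated replicates 1 and 3, and TP1 treated replicate 2 had the highest HGS2 values of both after them, at 5.41 and 38.5 CPM. Runx2 was also highest in these tumors among HGS2, at 96.9 and 131 CPM in TP3 treated replicates 1 and 3 and 90.2 CPM in TP1 treated replicate 2. The other HGS2 tumors had at most 78.5 CPM of it. Comp, Acan and Sox9 were not ordered this way, since Acan was highest in TP1 control replicate 2, Sox9 in TP1 control replicate 1 and the second highest Comp in TP2 treated replicate 2. Without the tumors high in bone genes, an alternative added after the data were seen, the TP3 log2 fold changes against TP2 controls were 0.85 for Alpl, -0.42 for Col10a1, -0.21 for Runx2 and 2.03 for Comp. The TP1 log2 fold changes moved from 0.60 to -2.57 for Col10a1, from -0.51 to -1.33 for Acan, from 1.53 to 0.59 for Alpl and from -1.93 to -2.70 for Sox9, and none passed adjustment. Pancreatic acinar markers were also uneven, with a summed CPM of 58390, 96810 and 63500 in TP1 control replicate 3, TP2 control replicate 2 and TP3 treated replicate 2 and at most 1866 in any other tumor. The part of either shift in the HGS2 spread was not tested beyond these fits.

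**Figure D4:**
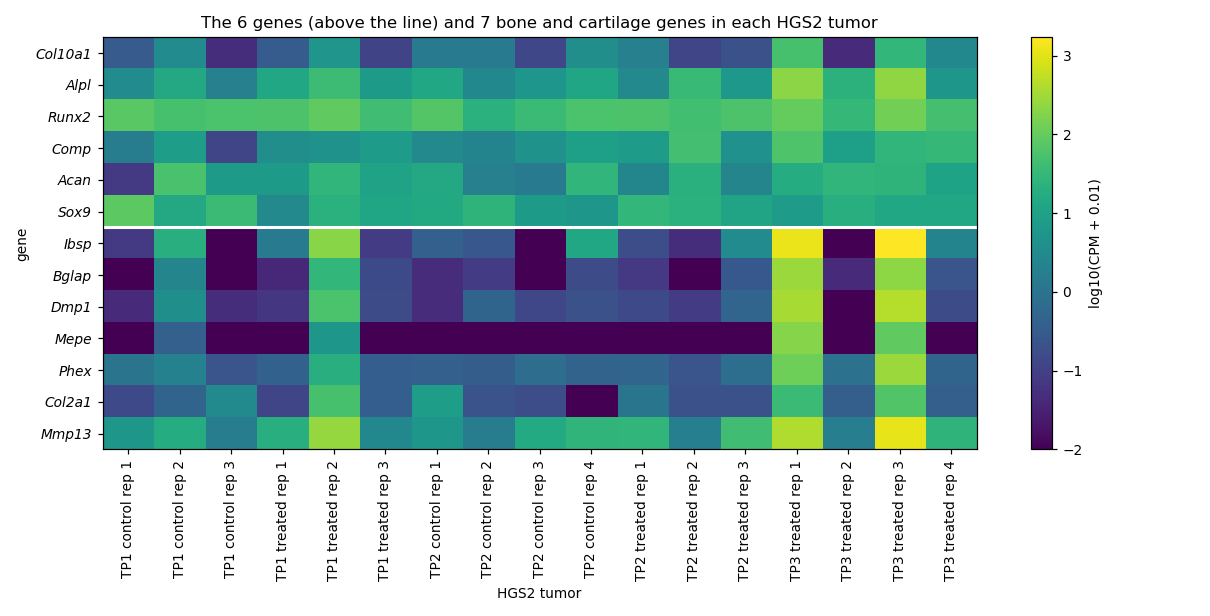
The 6 genes (above the white line) and 7 genes of bone and cartilage (below it) in each of the 17 HGS2 tumors (columns), colored by log10(CPM + 0.01). TP3 treated replicates 1 and 3 and TP1 treated replicate 2 stand out in the lower block, where Ibsp reaches 1175, 1709 and 202 CPM, and Col10a1 and Alpl are brightest in the same TP3 tumors.

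Between the models, control tumors were compared in a joint fit, in which 22.0% of all genes were called. Model, mouse strain and age differ together in this comparison. Acan is given by its levels alone, at most 0.523 CPM in 60577 controls and 0.0677 to 53.2 CPM in HGS2 controls, because it passed the filter only through HGS2 and so had to be higher there. Col10a1 is likewise left as a description. Of the other 4 members, 1 was called higher and 1 lower in HGS2. Comp was higher by a log2 fold change of 2.06 ± 0.64 (edgeR adjusted p = 0.00902). Alpl was lower in HGS2, at -2.03 ± 0.63 (edgeR adjusted p = 0.00906). Runx2 differed by 0.73 ± 0.27 (edgeR adjusted p = 0.0233), under the fold limit, and Sox9 by 0.46 ± 0.41 (edgeR adjusted p = 0.353). By limma-voom the adjusted p was 0.120 for Comp, which was then not called, and without HGS2 TP1 control replicate 2 Comp was at 1.09 (edgeR adjusted p = 0.129).

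No count over the gene lists is given between the models, since genes such as Matn3 passed the filter only through HGS2 (0 to 0.392 CPM in 60577 tumors and 0.305 to 5.41 in HGS2 controls). Col11a1, a minor fibrillar collagen gene counted in both models, differed by 6.20 ± 0.60 (edgeR adjusted p = 5.43e-09). Fibroblast markers differed between the models too, with 8 of 10 called higher in HGS2 controls and a summed CPM of 27220 to 105600 there, and 5 of 7 epithelial markers were called lower. The part of these markers in the difference of Comp was not tested.

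Whether the response to treatment differed by model was tested as an interaction. It was called for 1.45% of all genes at TP1 and for 6.90% at TP2, and for 0 of 5 members at either time. Acan, 1 of these 5, was hardly counted in 60577, and its standard errors were 2.15 and 2.16. For Sox9 the interaction was -1.55 ± 0.84 at TP1 and 2.05 ± 0.78 at TP2 (edgeR adjusted p = 0.327 and 0.0852, HGS2 minus 60577 on the log2 scale). The TP2 value passed the threshold in the DESeq2 Wald test (2.06, adjusted p = 0.0471) and without HGS2 TP2 control replicate 2 (2.85, edgeR adjusted p = 0.0230). For Alpl at TP2 the difference was 1.2 ± 1.18 (edgeR adjusted p = 0.512), and it turned to -0.53 without HGS2 TP2 treated replicate 2. For Col10a1 the fitted differences of 6.59 and 6.34 contain the contrast that chose it and were not tested.

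In the cultured lines, Col10a1, Comp and Acan did not pass the filter. The HGS2 line had 0 and 0 counts of Col10a1 and of Acan, and both lines were at or below 0.198 CPM of Comp. Sox9 was at 13.0 and 19.0 CPM in the 60577 line and at 6.20 and 8.19 in the HGS2 line, with a log2 fold change of -1.04 ± 0.29 (edgeR adjusted p = 0.0628). Runx2 was at 32.2 and 28.7 CPM in the 60577 line and at 40.5 and 32.2 in the HGS2 line (0.37 ± 0.22, edgeR adjusted p = 0.276). Alpl was at 13.8 and 1.75 CPM in the HGS2 line, which spanned both values of the 60577 line. Of these 3 members 0 were called, against 15.9% of the 13742 genes tested, and the DESeq2 Wald test called Sox9 (-1.02, adjusted p = 0.0211). Side by side, the Runx2 levels of the lines were of the order of those of the tumors. For Comp, the lowest HGS2 tumor, a TP1 control at 0.116 CPM, lay within the range of the HGS2 line (0.0795 to 0.158 CPM). Every 60577 tumor, at 0.294 CPM or more, was above the 60577 line. For Acan, the 60577 tumors, from 0 CPM, overlapped the 60577 line (0 to 0.141 CPM). Every HGS2 tumor, at 0.0677 CPM or more, was above the HGS2 line.

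Ordered by group median over the 12 groups, Col10a1 was highest in HGS2 TP3 treated tumors (16.04 CPM, range 0.0344 to 51.6), followed by 60577 TP1 controls (3.94 CPM) and TP2 controls (3.56 CPM). Each group overlapped the next in this order. Comp, at 29.2 CPM in the first group, overlapped from group to group until the cell lines, which lay below all 60577 TP2 controls. In the order of Acan a gap lay between the lowest HGS2 group, TP2 treated (median 2.55 CPM), and the highest 60577 group, TP1 control (0.196 CPM). Neighboring groups overlapped throughout for Sox9 and Alpl, with the highest medians in HGS2 TP1 controls (36.6 CPM) and HGS2 TP3 treated tumors (115 CPM). For Runx2 the last group, 60577 TP3 treated (20.1 CPM), lay apart from the one above it.

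The genes most like each member were taken by Pearson's correlation of log2 CPM over the 17 tumors of 60577 and over the 16 fitted tumors of HGS2, as a description. In 60577, the treated and control tumors stand apart, so a high correlation follows that split for many genes. For Col10a1 the nearest were Ypel2, Smarca1 and Nrgn (r = 0.96 each). Sox9 was nearest to Chchd10, Fam210b and Immt (0.96, 0.96 and 0.95), Runx2 to Doc2g, Mroh1 and Gm18066 (0.95, 0.95 and 0.94) and Alpl to A730049H05Rik, Smim3 and Acvr1 (0.94, 0.93 and 0.92). Comp was nearest to Mxra8, Msx1 and Loxl3 (0.87, 0.85 and 0.84). Acan, with few counts, was nearest to AI506816, Edn1 and Zfp607b (0.72, 0.70 and 0.66).

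In HGS2, Col10a1 was nearest to Kcnh2, Bmp8a and Fbxo25 (0.90, 0.88 and 0.87), and Alpl to Irx5, Slc13a5 and the collagen gene Col11a2 (0.89, 0.86 and 0.84). Acan was nearest to Itgbl1, Porcn and Fmod (0.88, 0.87 and 0.86), Comp to Ldb3, Krt9 and Actn3 (0.87, 0.86 and 0.85), Sox9 to Ank3, Slc22a23 and Col7a1 (0.92, 0.85 and 0.85) and Runx2 to Kctd20, Chn1 and Tiam2 (0.89, 0.87 and 0.87). No gene was nearest to the same member in both models. Among the members themselves, Col10a1 and Sox9 had r = 0.79 in 60577 and -0.07 in HGS2. Col10a1 and Alpl had 0.40 and 0.48, and Col10a1 and Runx2 0.19 and 0.56. By Spearman's correlation Col10a1 and Alpl had 0.42 and 0.31, and Col10a1 and Runx2 0.06 and 0.42. Of the pairs without Col10a1, Pearson's r was highest for Runx2 and Alpl in 60577 (0.68) and for Acan and Alpl in HGS2 (0.64).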

How the data were processed

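Deposited values were the authors' RSEM expected counts (estimated counts per gene, unnormalized and unfiltered) for 55487 genes in 34 tumors and 4 cell line libraries. According to the submitters' processing notes, reads were trimmed with Trim Galore 0.6.5 and mapped to GRCm38 with STAR 2.7.0f. Expected counts were rounded (3.59% of tumor values and 3.4% of cell line values were not whole). Positions were taken from GENCODE M21, and a gene was kept if 25% or more of the libraries reached 1 CPM (16241 in tumors, 13742 in cell lines). Library sizes were scaled by TMM. Two-sided tests were edgeR's quasi-likelihood F tests (edgeR 4.0.16 in R 4.3.3), with Benjamini-Hochberg adjusted p-values over all genes kept. The 5 groups of a model shared 1 fit, and a joint fit of 10 groups served to compare models. The standard error is the absolute log2 fold change divided by the square root of F.

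Alternatives were DESeq2 1.42.0 size factors and its Wald test, limma-voom (limma 3.58.1), no filter, a length and GC content offset (splines with 5 degrees of freedom), the replicate number as a block, both models fitted together, all 34 tumors, and each library left out in turn. The edgeR and limma-voom fits were tested on simulated data, in single comparisons and with changes placed in well-counted genes only. The other alternatives were not tested in this way. Group medians were also computed from TMM-scaled CPM, and correlations used a prior count of 2. The members and the gene lists were chosen with earlier results of these data known. Named genes were the members, the 2 called genes of each list that changed most in each comparison, and the 3 nearest genes per member, and other genes were picked with their values known.

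The labels number replicates but do not pair them, so the main fits had no block. None of 44 pairs of replicates was a copy (lowest chi-square per gene 10.0). Separate cultures are not stated for the cell lines, so their p-values measure the spread between libraries, which may be technical. Expected counts per cell line library summed to between 31633121 and 42461995. Figures were drawn with matplotlib 3.10.9 in Python 3.11.15.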

Additional observations from a re-analysis of the deposited data

Results flagged for a closer look

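One tumor lay far from the others of its group. Among 24 groups of 4 tumors checked over the 6 genes, Col10a1 in 60577 TP2 treated replicate 2, at 0.0752 CPM from 2 counts, was the only such value, where the other tumors of the group held 0 counts. With the other tumors at 0 counts, any value above 0 would be flagged. The chance rate of about 1 in 20 groups, set for the check, therefore does not hold here. The value is under the limit of 3 counts.

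HGS2 TP3 treated replicate 1, which was outside the main fit, held signal above every HGS2 control tumor for 4 of the 6 genes. Its level was 51.6 CPM for Col10a1, 61.2 CPM for Comp, 96.9 CPM for Runx2 and 207.7 CPM for Alpl. It is one of the tumors with bone genes described above, and whether these go together for a technical or a biological reason was not tested.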

How the results depend on the processing

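The count of called members changed under some alternative in every comparison with a call in the main fit, and in others without one. In 60577 at TP1, the replicate block, alone or with the length and GC content offset, gave 1 call in place of 0 (Comp, 1.41 with the block alone, edgeR adjusted p = 0.0466), and the block changed no other count except with the offset. The numbers were not taken as pairs, since deviations of same-numbered tumors from their group means correlated at a median of -0.04 in 60577 (-0.42 to 0.32 over 31 pairs) and -0.08 in HGS2 (-0.49 to 0.37 over 27 pairs), and at -0.15 in the cell lines. In TP3 treated tumors against TP2 controls, both models fitted together gave 1 in place of 2, and the offset, with or without the block, gave 3 by calling Runx2. From TP1 to TP2 treated tumors, where Alpl lay at the fold limit, 1 member was called with DESeq2 size factors, no filter, the DESeq2 Wald test, and the offset with or without the block. In HGS2 against 60577 controls limma-voom gave 1 in place of 3, counts that include Acan, which passed the filter only through HGS2. The model difference at TP2 gave 1 with the DESeq2 Wald test, and the cell lines gave 1 without a filter or with the DESeq2 Wald test. With each library left out in turn, the counts were 1 to 2 at TP2 in 60577, 2 to 3 at TP3, 0 to 2 from TP1 to TP2 treated tumors, 0 to 1 from TP2 to TP3 treated tumors, 2 to 3 between control tumors of the models, 0 to 1 for the model difference at TP2, 0 to 2 in cell lines and 0 in the others. These causes were not tested. The replicate block with the numbers crossed, added after the data were seen, called 2226 genes between the cell lines, against 2189 in the main fit and 2237 with the block. By Spearman's correlation, 9 of the 36 nearest genes were shared with Pearson's.

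Directions turned for Col10a1 between 60577 controls by limma-voom (-0.47) and without TP2 control replicate 3 (-0.86, with 0.89 as the highest value without 1 tumor), for Alpl in the model difference at TP2 without HGS2 TP2 treated replicate 2 (-0.53 to 1.70 over the tumors left out), and at TP3 in HGS2 for Col10a1 (-0.42, up to 3.29) and Runx2 (-0.21, up to 1.00) without TP3 treated replicate 3 or without the tumors high in bone genes. In HGS2 they also turned for Col10a1 at TP1 without those tumors (-2.57), for Acan at TP1 (1.98) and Alpl at TP2 (-0.03) by limma-voom, for Sox9 at TP3 with all 34 tumors (-0.14) and for Runx2 at TP2 without the tumors high in pancreatic acinar genes (-0.04). None of these HGS2 values passed adjustment. In a fit of both models together, 9 of the single-gene calls in 60577 were lost, those of Alpl at TP3, Matn4, Cilp2, Pth1r, Sp7, Spp1 and Phospho1 at TP1, Mmp13 at TP2 and Fmod at TP3. The length and GC content offset moved the median log2 fold change of all genes by up to -0.29 (60577 at TP3, where Runx2 was then -1.21). Sox9 at TP2 and TP3 in 60577 was called under every alternative run. Col10a1 in treated 60577 tumors and Acan in all 60577 tumors are limited by counts near 0.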

Other observations

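Matn1, a cartilage matrilin gene that did not pass the filter and was picked with its values known, was near 0 in control tumors of both models. In 60577 it held 0, 1 and 1 counts in TP1 controls and 22, 29 and 37 counts (0.700 to 1.37 CPM) in TP1 treated tumors. At TP2 the controls held 0 counts each and the treated tumors 3 to 6 counts. Without a filter on low counts, the log2 fold change of Matn1 was 5.23 ± 0.89 at TP1 in 60577 (edgeR adjusted p = 0.000634), and at TP2, where all controls were at 0, the adjusted p from edgeR was 0.00589. In HGS2 Matn1 held 1, 0 and 0 counts in TP1 controls and 15, 14 and 25 counts in TP1 treated tumors. HGS2 TP2 controls held 0 to 2 counts and treated tumors 8 to 15 counts. Without a filter, neither HGS2 difference passed adjustment (5.17 ± 1.17 at TP1 and 3.43 ± 0.96 at TP2, edgeR adjusted p = 1.00 and 0.885). No treated tumor overlapped a control, but how many other genes separate the groups in this way was not counted, so nothing is read from it. At TP3 the counts in treated tumors were 0 to 3 in 60577 and 0 to 11 in HGS2, the highest in TP3 treated replicate 3.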
